A study of Homo sapiens with 2 samples.

Results

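Innate sensing and Fc receptor genes were described by 10 of the 32738 genes of the count table, *CD14*, *TLR2*, *TLR4*, *LY96*, *FCGR1A*, *FCGR2A*, *FCGR3A*, *FCER1G*, *TYROBP* and *FPR1*, each found once by its symbol. They were chosen by name, with earlier results of these data known. Levels were read in 7550 of the 10836 barcodes, those called for a single hashtag that had at most 36000 unique molecular identifiers (UMIs), 6000 genes and 18% mitochondrial UMIs.

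The cells came from the human induced pluripotent stem cell line iPS11. CD34+ cells derived from it underwent the endothelial-to-hematopoietic transition (EHT) for 5 days on plates that were uncoated or coated with VCAM1, with DLL4 or with DLL4+VCAM1, and nonadherent cells were taken. Wells of a coating condition were combined, stained with 1 of 4 hashtag antibodies (0252, 0253, 0254 and 0255) and captured together in 1 library, so that there was no replicate, no p-value was computed and every interval covers counting error alone. The sources used here do not tie a hashtag to a coating, and hashtags are therefore given without a condition.

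Macrophages, monocytes and granulocytes carry receptors that recognize microbes and antibody-coated particles. TLR4 senses lipopolysaccharide when paired with MD-2, the product of *LY96*, and CD14 hands it the ligand, whereas TLR2 senses bacterial lipoproteins. The receptors CD64 (*FCGR1A*), CD32A (*FCGR2A*) and CD16A (*FCGR3A*) bind IgG. FCER1G and DAP12, the product of *TYROBP*, are small transmembrane adaptors whose ITAM motifs recruit the kinase SYK, and FPR1 detects formylated bacterial peptides.

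Cells were classed by the UMIs of marker genes that are not among the 10. A cell with at least 10 UMIs of *C1QA*, *C1QB* and *C1QC* together was C1Q-positive (619 cells), 1 with at least 10 of *HLA-DRA* and at most 1 of C1Q was HLA-DRA-positive without C1Q (270 cells), and 10 UMIs also set the *ELANE*- (49 cells), *S100A8*- (206 cells) and *EPX*-positive (195 cells) classes. CD34/GATA2-positive cells had at least 2 UMIs of each gene and passed no other rule (1732 cells). The *S100A8* and *EPX* rules took precedence over that of *ELANE*, so that 20 *S100A8*-positive and 2 *EPX*-positive cells also had at least 10 *ELANE* UMIs. The 27 cells that passed conflicting rules otherwise, 26 of them for C1Q and *S100A8* and 1 for *S100A8* and *EPX*, were set apart as mixed, and 4452 cells were in no class. Median depth was 13227 UMIs per cell in the C1Q-positive, 16714.5 in the HLA-DRA-positive, 13714 in the *ELANE*-, 12996.5 in the *S100A8*-, 19103 in the *EPX*- and 21067.5 in the CD34/GATA2-positive class. The median mitochondrial share lay between 10.02% (*ELANE*) and 13.96% (CD34/GATA2).

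Marker lists were read against these rules. Of the 16557 genes with at least 20 UMIs, 10.8% were at least 2-fold higher in C1Q-positive cells than in all other cells. The share was 6.20% for HLA-DRA-positive cells without C1Q, 9.53% for *ELANE*-, 10.4% for *S100A8*-, 4.86% for *EPX*- and 3.20% for CD34/GATA2-positive cells. A single marker of a list at that level was not read as a result. Of 7 macrophage markers, 6 were at least 2-fold higher in C1Q-positive cells than in all other cells, as were 3 of 4 monocyte and 4 of 5 tested dendritic markers, so markers from several lists were at that level in the same class. The lowest of the 3 monocyte markers was at 0.441 CPM there, and all 3 were at higher levels in *S100A8*-positive cells. In HLA-DRA-positive cells without C1Q, 4 of 5 tested dendritic markers and 1 of 7 macrophage markers were at that level. All 4 azurophil granule markers were higher in the *ELANE*- and *S100A8*-positive cells, and all 4 monocyte markers in the latter. Of 3 tested late neutrophil markers, 2 were higher in each of these classes, the lower of them at 1.337 and 1.025 CPM. *EPX*-positive cells had 4 of 4 eosinophil, 3 of 5 tested mast and basophil and 2 of 4 azurophil markers at 2-fold or more. CD34/GATA2-positive cells had 1 of 5 progenitor, 2 of 5 erythroid, 2 of 5 mast and basophil and 1 of 4 megakaryocyte markers at that level. Classes are therefore called by their rules.

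Promoter sequences were read because PU.1, a transcription factor of myeloid cells, is known to bind purine-rich sites in promoters of this kind. The RefSeq promoters of GRCh38.p14, from 250 bases before to 50 after a start, were searched on both strands for the letters GAGGAAG (PU.1), which 13.6% of all 35116 promoters held, AGATAA (10.33%; bound by GATA factors), TGANTCA (AP-1, 7.709%) and TTGCNNAA (C/EBP, 10.46%). The 4 genes shown are *TLR4*, which had the most matches, *TYROBP*, the adaptor detected in every C1Q-positive cell, *CD14*, which had the highest ratio in C1Q-positive cells, and *FCGR2A*, which was also high in *EPX*-positive cells. Capitals mark the matches on either strand.
TLR4, chr9:117704153-117704452, plus strand: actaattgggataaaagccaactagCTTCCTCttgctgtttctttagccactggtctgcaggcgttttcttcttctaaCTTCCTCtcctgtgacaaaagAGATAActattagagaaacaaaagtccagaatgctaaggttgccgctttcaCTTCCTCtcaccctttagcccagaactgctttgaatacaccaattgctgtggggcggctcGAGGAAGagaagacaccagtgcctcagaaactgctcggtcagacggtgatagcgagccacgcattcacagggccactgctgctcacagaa
TYROBP, chr19:35908246-35908545, minus strand: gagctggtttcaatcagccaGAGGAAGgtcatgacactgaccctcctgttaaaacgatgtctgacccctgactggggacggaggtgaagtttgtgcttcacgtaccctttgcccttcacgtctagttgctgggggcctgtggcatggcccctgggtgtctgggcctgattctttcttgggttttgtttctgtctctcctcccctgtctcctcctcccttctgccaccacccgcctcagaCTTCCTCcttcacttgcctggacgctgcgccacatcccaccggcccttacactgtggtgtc
CD14, chr5:140633126-140633425, minus strand: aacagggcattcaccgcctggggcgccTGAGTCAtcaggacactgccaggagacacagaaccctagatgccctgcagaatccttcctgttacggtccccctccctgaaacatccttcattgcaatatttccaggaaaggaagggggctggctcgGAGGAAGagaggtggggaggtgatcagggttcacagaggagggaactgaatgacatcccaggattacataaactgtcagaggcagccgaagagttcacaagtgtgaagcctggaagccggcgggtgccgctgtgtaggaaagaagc
FCGR2A, chr1:161505207-161505506, plus strand: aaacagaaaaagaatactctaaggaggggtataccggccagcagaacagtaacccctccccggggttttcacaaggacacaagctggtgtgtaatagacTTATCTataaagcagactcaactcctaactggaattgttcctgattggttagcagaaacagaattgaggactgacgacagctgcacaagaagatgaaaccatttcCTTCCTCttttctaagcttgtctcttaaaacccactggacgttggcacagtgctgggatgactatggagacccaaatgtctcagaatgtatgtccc
The *TLR4* promoter held 4 PU.1 matches, whose first bases lay 225, 172, 100 and 40 bases before the start, and 1 GATA match at 151 bases. In *TYROBP* the PU.1 letters stood 230 and 11 bases before the start. The *CD14* promoter had 1 PU.1 match at 96 and 1 AP-1 match at 223 bases, and that of *FCGR2A* 1 PU.1 match at 46 and 1 GATA match at 151 bases. Of the other members searched (*LY96* was not), *FCGR1A* had a PU.1 match 47 bases before its start, *FPR1* an AP-1 match at 6 bases, *FCGR3A* matches at some of its several starts, and *TLR2* and *FCER1G* no match. A match is a run of letters, and its part in the levels was not tested.

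Levels are in CPM, a count scaled to 1000000 UMIs over the summed cells of a class, each with its 95% exact Poisson interval in parentheses, and a fold is a ratio of such levels. Across classes, 9 of the 10 genes were at least 2-fold higher in C1Q-positive cells than in all other cells, where 10.8% of the 16557 genes with at least 20 UMIs were. The tenth, *FCER1G*, stood at 1.98-fold (95% interval, 1.91 to 2.04). The median log2 ratio of the 10 genes was 2.76, against -0.10 over all genes tested. *S100A8*-positive cells had 5 of 10 at 2-fold or more (*TLR2*, *TLR4*, *FCGR1A*, *FCGR3A* and *FPR1*; background, 10.4%). HLA-DRA-positive cells without C1Q had 1 (*LY96*; 6.20%), *ELANE*-positive cells 1 (*TLR4*; 9.53%) and *EPX*-positive cells 1 (*FCGR2A*; 4.86%), counts of 1 in 10 that are near the background. These 3 calls did not hold under each alternative. The count was 0 in HLA-DRA- and *EPX*-positive cells after thinning, and 0 in *ELANE*- and *EPX*-positive cells with class rules at 5 UMIs. CD34/GATA2-positive cells had 0 of 10, with a background of 3.20%. There, 7 of the 10 were at most 0.5 times the level of the other cells, which included the C1Q- and *S100A8*-positive classes. That share was not counted over all genes. Of the 7, *CD14* was not lower than in the cells in no class (ratio, 1.14; 0.762 to 1.68). For the rest of the 7 the cells in no class were from 2.31-fold (*TLR4*) to 16.2-fold (*FCGR1A*) higher. The median log2 ratio of the 10 in CD34/GATA2-positive cells, against all other cells, was -2.96, and -0.04 over all genes tested. For every class but the C1Q-positive, the other cells included C1Q-positive cells, and the counts depend on that. Against the 4452 cells in no class, HLA-DRA-positive cells without C1Q were 3.98-fold (2.24 to 6.70) higher for *CD14*. They were 4.07-fold higher for *LY96*, 3.45-fold for *FPR1* and 2.01-fold for *TYROBP*, and within 2-fold for the other members. *S100A8*-positive cells were 6.78-fold (3.88 to 11.3) higher for *CD14*. Shares of all genes were not counted against these cells. The cells in no class were not free of C1Q, which was at 27.0 CPM in them. It was at 4.36 CPM in CD34/GATA2-positive, 16.1 in HLA-DRA-positive without C1Q and 55.3 in *S100A8*-positive cells. In all, 447 kept cells had from 2 to 9 C1Q UMIs, and such cells could be in no class. A gene without a UMI in a class was not counted as higher there. When cells over 10% mitochondrial UMIs were left out, 736 cells remained and the count in *S100A8*-positive cells was 3, without *FCGR1A* and *FCGR3A*. The bar plot gives the level of each gene in the 6 classes.

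**Figure D1:**
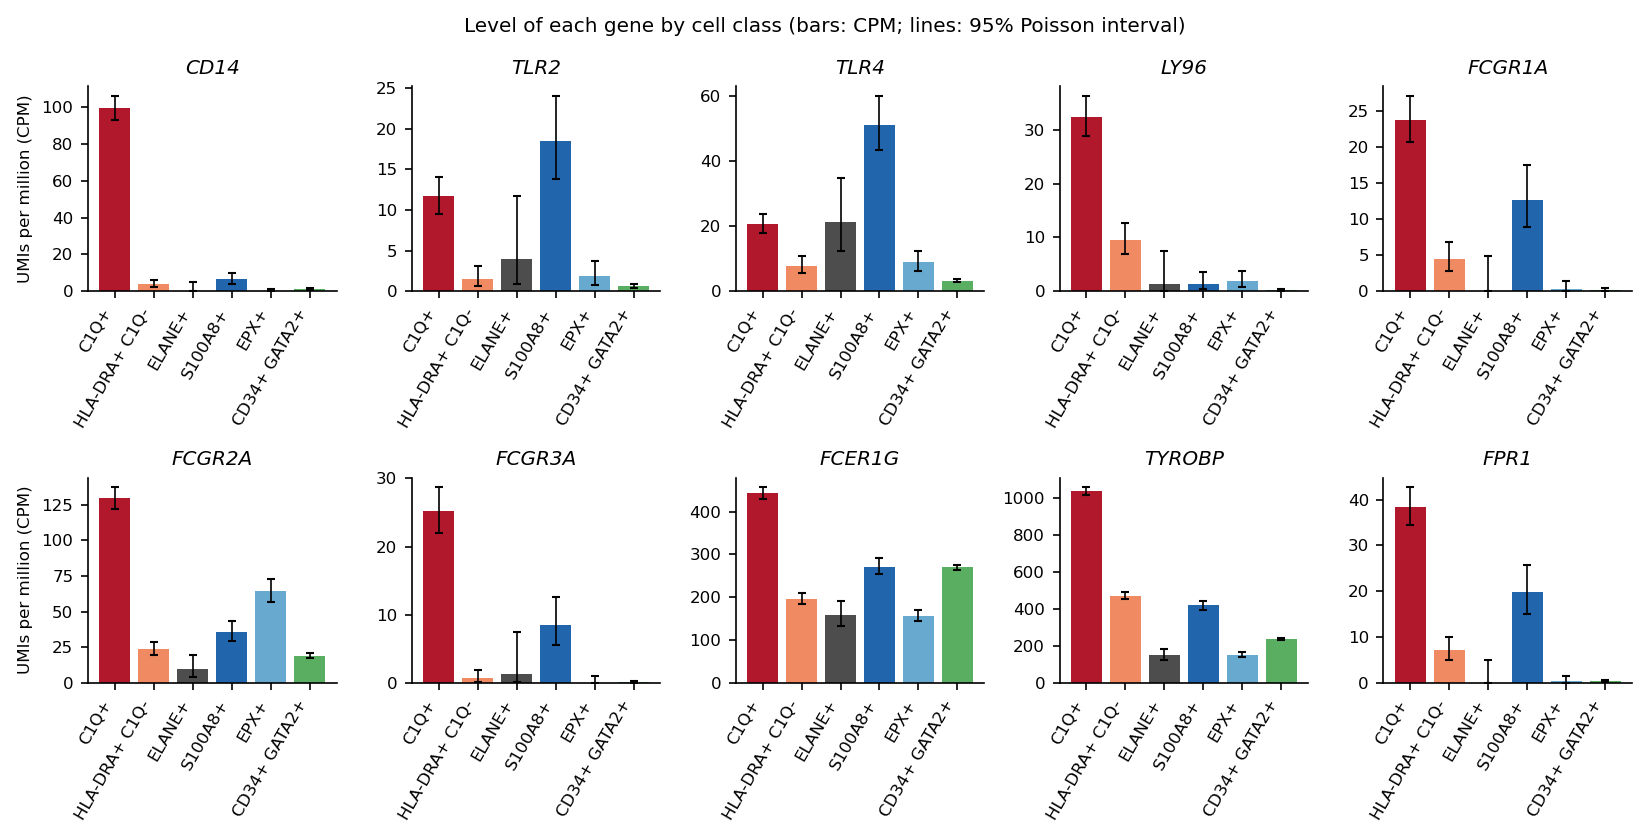
Level of each of the 10 genes in UMIs per 1000000 UMIs (CPM, vertical axes from 0) in the 6 classes, as bars with 95% exact Poisson intervals. C1Q-positive cells have the tallest bar for 8 genes, *TLR2* and *TLR4* are tallest in S100A8-positive cells, and *FCGR2A* has a raised bar of 64.6 CPM in EPX-positive cells.

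Sensing of lipopolysaccharide was described first. *CD14* (hg19, chr5:140011313-140013285, minus strand), the co-receptor, was at 99.5 CPM (95% interval, 93.1 to 106) in C1Q-positive cells. It was at 6.49 (3.91 to 10.1) in *S100A8*-positive cells, 3.80 (2.25 to 6.01) in HLA-DRA-positive cells without C1Q and 1.09 (0.782 to 1.48) in CD34/GATA2-positive cells. A single UMI was seen in *EPX*-positive cells, and none in the *ELANE*-positive cells, for which 3 counts would allow 4.01 CPM. C1Q-positive cells thus stood 15.3-fold (9.76 to 25.6) above *S100A8*-positive cells, the next class, while the intervals of *S100A8*-positive and HLA-DRA-positive cells overlapped. Against all other cells the ratio was 52.7 (45.8 to 60.9), or 5.72 on the log2 scale, and 6.38 when the mixed cells were left out of the others. C1Q-positive cells were above HLA-DRA-positive cells without C1Q in the 4 hashtags, with 83.1 against 6.07, 148 against 4.72, 71.9 against 4.84 and 93.7 against 0 CPM from 0252 to 0255.

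*TLR4* (chr9:120466453-120487013, plus strand) had another order. Its level was 51.2 CPM (43.4 to 60.1) in *S100A8*-positive cells, 21.4 (12.2 to 34.7) in *ELANE*-positive cells and 20.6 (17.7 to 23.8) in C1Q-positive cells. The *ELANE*- and C1Q-positive classes were not separated, whereas *S100A8*-positive cells were 2.49-fold (1.99 to 3.10) above C1Q-positive cells. *EPX*-positive cells were at 8.86 (6.13 to 12.4), HLA-DRA-positive cells without C1Q at 7.82 (5.51 to 10.8) and CD34/GATA2-positive cells at 3.22 (2.67 to 3.84). By hashtag, *TLR4* in *S100A8*-positive against C1Q-positive cells was 62.1 against 27.0 CPM (0252), 44.7 against 26.5 (0253) and 38.3 against 11.8 (0254). Hashtag 0255 had 2 *S100A8*-positive cells and no *TLR4* UMI in them.

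*LY96* (chr8:74903627-74941314, plus strand), without whose protein TLR4 does not respond to lipopolysaccharide, did not follow *TLR4*. It was at 32.4 CPM (28.8 to 36.3) in C1Q-positive and 9.51 (6.94 to 12.7) in HLA-DRA-positive cells without C1Q, a 3.41-fold difference (2.48 to 4.77). In 3 other classes it was near the limit of detection, with 1.37 CPM (4 UMIs) in *S100A8*-, 1.34 (1 UMI) in *ELANE*- and 1.82 (7 UMIs) in *EPX*-positive cells. CD34/GATA2-positive cells were at 0.213 (0.0918 to 0.419). The difference between C1Q- and *S100A8*-positive cells was 23.7-fold (9.16 to 87.6), in the opposite direction to that of *TLR4*.

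The UMIs of *LY96* per UMI of *TLR4* were compared between classes and not read as a ratio of molecules, since capture can differ between genes. They were 1.57 (1.30 to 1.90) in C1Q-positive, 1.22 (0.770 to 1.93) in HLA-DRA-positive without C1Q and 0.0267 (0.00717 to 0.0697) in *S100A8*-positive cells. *TLR4* was detected in 89 of 206 *S100A8*-positive cells (43.2%; exact binomial interval, 36.3 to 50.3), *LY96* in 4 (1.94%) and both in 1. In C1Q-positive cells *TLR4* was detected in 151 of 619 (24.4%), *LY96* in 193 (31.2%), both in 62 (10.0%) and both with *CD14* in 38 (6.14%). No *S100A8*-, *ELANE*- or *EPX*-positive cell had UMIs of all 3 genes.

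As cells that should lack these genes, 46 cells with at least 20 UMIs of the collagens *COL1A1* and *COL1A2* (median, 19567.5 UMIs) and 75 with at least 5 UMIs of the erythroid factor *KLF1* (21972 UMIs) were read in the same way. Both lay outside the first 5 classes and could include CD34/GATA2-positive cells. *TLR4* was seen in 10.9% of the collagen cells and 2.67% of the *KLF1* cells, *LY96* in 4.35 and 1.33%. The *LY96* shares of *S100A8*- and *EPX*-positive cells (1.94 and 3.59%) were not above that of the collagen cells. That share rests on 2 cells (interval, 0.531 to 14.8%). Both were above the share of the *KLF1* cells and within its interval, 0.0338 to 7.21%. These shares do not show whether the *LY96* counts were background. The *TLR4* share of CD34/GATA2-positive cells (6.58%) was not above that of the collagen cells either. Those of HLA-DRA-positive cells without C1Q (12.2%) and *EPX*-positive cells (15.4%) lay within the interval of the collagen cells, 3.62 to 23.6%. That interval rests on 5 collagen cells with a *TLR4* UMI, so these shares do not show whether the *TLR4* counts were background. Thinned to 5000 UMIs per cell, *TLR4* was in 25.2% of *S100A8*-positive, 14.6% of *ELANE*-positive and 9.90% of C1Q-positive cells and in 0 of the 46 collagen cells (limit of a count of 0, 6.52%). It was in 1.73% of thinned CD34/GATA2-positive cells. Thinned *LY96* shares were 14.3% in C1Q-positive and 0.990% in *S100A8*-positive cells.

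**Figure D2:**
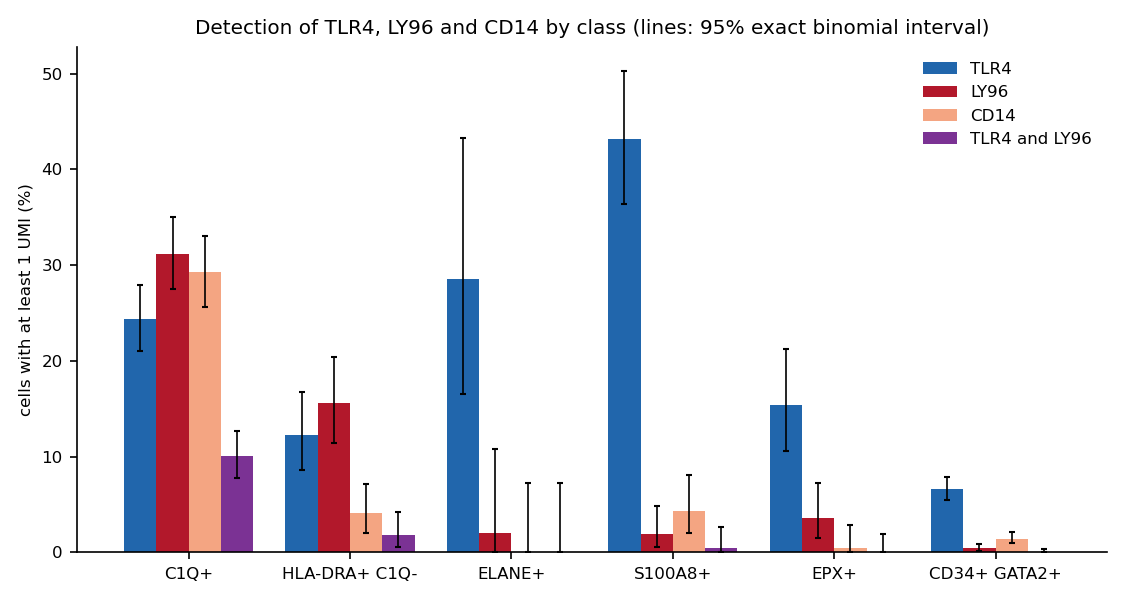
Share of cells with at least 1 UMI (vertical axis, %) of *TLR4*, *LY96*, *CD14*, or both *TLR4* and *LY96*, in the 6 classes, as bars with 95% exact binomial intervals. In S100A8-positive cells *TLR4* reaches 43.2% and *LY96* 1.94%, whereas in C1Q-positive cells the shares are 24.4 and 31.2%.

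The mixed cells touch this result. They held 13 *LY96* and 26 *TLR4* UMIs, and when such cells were kept in both classes, the log2 ratio of *LY96* in *S100A8*-positive cells against all other cells went from -1.56 to 0.29. Levels in the 27 mixed cells were above those of C1Q-positive cells for *CD14* (160.5 against 99.5 CPM) and *FCGR3A* (65.6 against 25.2). The same held for *FPR1* (65.6 against 38.4), *TLR2* (34.5 against 11.7), *TLR4*, *FCGR1A* and *FCER1G*. They were below for *LY96* (22.4 against 32.4), *FCGR2A* and *TYROBP*. Whether the mixed barcodes held a pair of cells was not tested.

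*TLR2* (chr4:154605222-154627412, plus strand) was at 18.4 CPM (13.9 to 24.1) in *S100A8*-positive and 11.7 (9.56 to 14.1) in C1Q-positive cells, a ratio of 1.58 (1.12 to 2.21). The other classes held 4.01 CPM or less, with 23 UMIs in all 1732 CD34/GATA2-positive cells. *S100A8*-positive cells had the higher value in each of the 4 hashtags, but by narrow margins, from 6.96 against 6.50 CPM in 0254 to 21.7 against 18.2 in 0252, while hashtag 0255 had 1 UMI in its 2 cells. From 0252 to 0255 there were 99, 89, 16 and 2 *S100A8*-positive and 183, 156, 165 and 115 C1Q-positive cells. *TLR2* in the latter was at 18.2, 14.9, 6.50 and 5.21 CPM. The pooled ratio of 1.58 and its interval do not allow for this unequal mix of hashtags.

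*FPR1* (chr19:52248425-52307368, minus strand), the formyl peptide receptor, was at 38.4 CPM (34.5 to 42.7) in C1Q-positive, 19.8 (15.0 to 25.6) in *S100A8*-positive and 7.18 (4.98 to 10.0) in HLA-DRA-positive cells without C1Q. These 3 classes did not overlap. CD34/GATA2-positive cells were at 0.346 CPM, *EPX*-positive cells had 1 UMI and *ELANE*-positive cells none.

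The IgG receptors differed from each other in the classes outside C1Q. *FCGR1A* (chr1:149754227-149763231, plus strand), the high-affinity receptor, was at 23.7 CPM (20.6 to 27.1) in C1Q-positive, 12.6 (8.90 to 17.4) in *S100A8*-positive and 4.44 (2.75 to 6.78) in HLA-DRA-positive cells without C1Q. It had 8 UMIs in CD34/GATA2-positive and 1 in *EPX*-positive cells, and none in *ELANE*-positive cells or in either set of reference cells. *FCGR3A* (chr1:161511549-161520758, minus strand) was at 25.2 CPM (22.1 to 28.7) in C1Q-positive cells and 8.54 (5.53 to 12.6) in *S100A8*-positive cells. It was at 0.634 CPM (3 UMIs) in HLA-DRA-positive cells without C1Q and 0.0798 (3 UMIs) in CD34/GATA2-positive cells, and *EPX*-positive cells had none, which allows up to 0.782 CPM.

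*FCGR2A* (chr1:161475220-161493803, plus strand) was detected in every class. It was at 130 CPM (122 to 137) in C1Q-positive, 64.6 (56.8 to 73.2) in *EPX*-positive, 35.5 (29.0 to 43.0) in *S100A8*-positive, 23.7 (19.5 to 28.5) in HLA-DRA-positive without C1Q, 19.1 (17.7 to 20.5) in CD34/GATA2-positive and 9.36 (3.76 to 19.3) in *ELANE*-positive cells. The last 3 classes overlapped with their neighbours in this order. *EPX*-positive cells were 2.15-fold (1.89 to 2.45) above all other cells, close to the limit of 2, and were above CD34/GATA2-positive cells in the 4 hashtags (82.7 against 25.6, 62.0 against 22.0, 43.7 against 14.6 and 30.2 against 9.59 CPM from 0252 to 0255). The gene was seen in 57.4% of *EPX*-positive cells, against 15.2% of the collagen cells (interval, 6.34 to 28.9%), and in 23.7% against 4.35% after thinning. The *KLF1* cells had a share of 36.0% and a level of 25.1 CPM (18.2 to 33.8), so they did not lack the gene. The *ELANE*-positive share, 8.16%, was not above that of the collagen cells, and the CD34/GATA2-positive (26.4%), *S100A8*-positive (28.2%) and HLA-DRA-positive (28.1%) shares lay within their interval. Shares depend on depth. By level, *S100A8*-positive cells were 3.5-fold (1.8 to 7.9) and HLA-DRA-positive cells 2.4-fold (1.2 to 5.3) above the collagen cells. CD34/GATA2-positive cells were 1.9-fold (0.99 to 4.2) above them.

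These receptors have near-identical copies that the mapping may have confused. *FCGR3B* had 3 UMIs in all 7550 cells and *FCGR1B* 3.64 CPM in C1Q-positive cells, and *FCGR1C* and *FCGR2C* are no rows of the table. The inhibitory receptor *FCGR2B* was at 36.6 CPM in C1Q-positive and 4.01 in HLA-DRA-positive cells without C1Q, and had 1 UMI in *EPX*-positive cells and no UMI in *S100A8*-positive cells. How reads shared by copies were assigned was not tested, and the levels of *FCGR1A*, *FCGR2A* and *FCGR3A* carry that uncertainty.

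The adaptors were the most widespread of the 10 genes. *TYROBP* (chr19:36395303-36399197, minus strand) was at 1035 CPM (1014 to 1056) in C1Q-positive, 469 (450 to 489) in HLA-DRA-positive without C1Q, 418 (395 to 442) in *S100A8*-positive, 236 (231 to 240) in CD34/GATA2-positive, 152 (140 to 164) in *EPX*-positive and 151 (125 to 182) in *ELANE*-positive cells. *FCER1G* (chr1:161185024-161190489, plus strand) was at 443 CPM (430 to 457) in C1Q-positive, 272 (253 to 291) in *S100A8*-positive, 270 (265 to 275) in CD34/GATA2-positive, 197 (184 to 210) in HLA-DRA-positive without C1Q, 159 (132 to 190) in *ELANE*-positive and 156 (144 to 169) in *EPX*-positive cells. CD34/GATA2-positive cells thus ranked with *S100A8*-positive cells for *FCER1G*, where they were not separated, and below them for *TYROBP*.

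Both adaptors were present in nearly every CD34/GATA2-positive cell, *FCER1G* in 96.1% and *TYROBP* in 94.1%, and after thinning in 66.3 and 61.3%. The collagen cells had shares of 41.3 and 39.1%, and 13.0 and 17.4% after thinning. The *KLF1* cells were like the CD34/GATA2-positive cells, with 96.0 and 94.7%, and were no background for the adaptors. At the ratio of adaptor to C1Q UMIs found in C1Q-positive cells, the 164 C1Q UMIs of CD34/GATA2-positive cells would come with 33.2 *FCER1G* and 77.6 *TYROBP* UMIs, and 10142 and 8860 were counted. For *CD14* the same reckoning gave 7.46 UMIs and 41 were counted, of which 17 were in 1 cell. For *TLR4* it gave 1.54 UMIs and 121 were counted, and for *FCGR2A* 9.72 and 717. In the collagen cells, with 34 C1Q UMIs, it gave 16.1 *TYROBP* UMIs and 40 were counted. By the class rules, CD34/GATA2-positive and collagen cells had under 10 C1Q UMIs each, and the ratio came from cells with at least 10. Both limits can lower the reckoned counts, so the reckoning does not show whether the counted UMIs were background. The reckoning also covers RNA from C1Q-positive cells alone. Cells in no class held 615 *TLR4* and 1963 *FCGR2A* UMIs, and *TLR4* was highest in *S100A8*-positive cells. Background from those sources was not tested.

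*FCER1G* UMIs per *TYROBP* UMI set the classes apart. The value was 0.428 (0.413 to 0.444) in C1Q-positive and 0.419 (0.388 to 0.453) in HLA-DRA-positive cells without C1Q, which were not separated. It was 0.650 (0.594 to 0.712) in *S100A8*-positive cells. In *EPX*-positive (1.03; 0.918 to 1.16), *ELANE*-positive (1.05; 0.807 to 1.38) and CD34/GATA2-positive cells (1.14; 1.11 to 1.18) it was more than 2 times as high as in C1Q-positive cells. By hashtag it ranged from 0.376 to 0.496 in C1Q-positive and from 1.11 to 1.22 in CD34/GATA2-positive cells, with no overlap. In *S100A8*-positive cells it was 0.567 in 0252, 0.685 in 0253 and 1.01 in 0254, which had 16 cells. Capture can differ between both genes, and a value of 1 does not mean equal numbers of molecules.

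**Figure D3:**
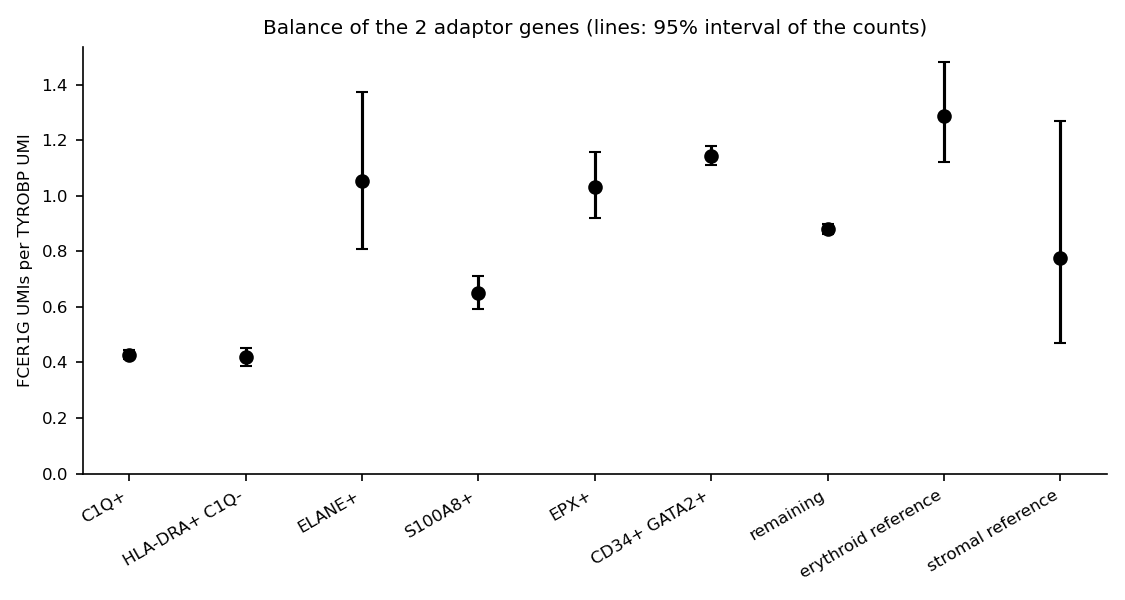
*FCER1G* UMIs per *TYROBP* UMI (vertical axis from 0) for the 6 classes, the cells in no class (remaining), the *KLF1* cells (erythroid reference) and the collagen cells (stromal reference), as points with 95% intervals of the counts. The classes with *HLA-DRA* or C1Q lie near 0.42, S100A8-positive cells at 0.650, and EPX-, ELANE- and CD34/GATA2-positive cells between 1.03 and 1.14.

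The genes were not evenly spread within C1Q-positive cells. *CD14* was detected in 181 of 619 cells (29.2%; 25.7 to 33.0), 10% of the cells (62) held 77.6% of its 903 UMIs, and the highest cell had 49, so Poisson intervals of its level leave out most of its spread. *TYROBP* was detected in all 619, with a median of 14 UMIs per cell, and 21.7% of its UMIs were in the 62 highest cells. With each cell thinned to 5000 UMIs, 65.7% of C1Q-positive cells had a UMI of at least 1 of the 8 members other than the adaptors and 17.9% of at least 3. The shares were 48.0 and 3.96% in *S100A8*-positive, 25.6 and 0.370% in HLA-DRA-positive without C1Q, 10.6 and 0% in CD34/GATA2-positive and 6.52 and 0% in collagen cells.

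C1Q-positive cells were split into quintiles by C1Q UMIs per UMI. From quintile 1 to 5 *CD14* went from 11.5 CPM (7.62 to 16.6) to 439 (405 to 475), a ratio of 38.3 (26.2 to 58.1). *FCGR3A* went from 6.55 to 85.8 CPM, 13.1-fold (7.75 to 23.7), *FCGR1A* from 7.78 to 50.8, 6.53-fold (3.89 to 11.5), and *FPR1* from 19.7 to 90.8, 4.62-fold (3.29 to 6.58). The ratio was between 2.87 and 3.91 for *FCGR2A*, *LY96*, *TYROBP*, *TLR2* and *FCER1G*. *TLR4* had the lowest ratio, 2.00 (1.34 to 2.99), and stood at 9.22 CPM in quintile 2, under the 20.1 of quintile 1. Levels were higher at each step for 7 of the 10 genes, and *CD14*, *TLR2* and *TLR4* had 1 step down. How many of all genes rose in this way was not counted. Median depth went the other way, from 18420 UMIs in quintile 1 to 10568 in quintile 5, and the proliferation gene *MKI67* went from 260 to 75.1 CPM. The class required at least 10 C1Q UMIs, so only deeper cells could enter it with few C1Q UMIs per UMI. The fall in depth is therefore in part set by the rule. The part of depth in the differences between quintiles was not tested.

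C1Q-positive cells were also split by *CD14* itself. The 120 C1Q-positive cells with at least 2 *CD14* UMIs had a median depth of 12284.5 UMIs and the 438 without had 13566.5, and C1Q was at 4005 and 1625 CPM. *FCGR3A* was at 76.3 CPM (63.8 to 90.6) in the former and 10.1 (7.78 to 12.8) in the latter, *FPR1* at 85.6 and 23.6, *LY96* at 68.2 and 20.6, and *FCGR1A* at 50.7 and 16.0. *FCGR2A* (243 and 91.6 CPM), *TLR2* (22.7 and 8.69) and *TLR4* (35.5 and 16.3) differed by 2.18- to 2.65-fold, *FCER1G* (718 and 367) and *TYROBP* (1521 and 881) by 1.96- and 1.73-fold. The adaptors had the lowest ratios of the members here, whereas *TLR4* had the lowest between quintiles. *HLA-DRA* was at 1779 against 1581 CPM (1.12-fold; 1.08 to 1.17) in this split and 2.30-fold (2.18 to 2.43) higher in quintile 5 than in quintile 1.

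By hashtag, the level in all cells of the highest hashtag was at least 1.5 times that of the lowest for 7 of 10 genes, where 18.6% of 13872 genes with at least 80 UMIs were. With class levels weighted by the pooled share of each class it was so for 5, without *FCGR3A* and *FPR1*. In this weighting the *S100A8*-positive level of 0255 came from 2 cells, which limits the weighted values of low genes. In the C1Q-positive cells it was so for 5 of 10, *CD14*, *TLR2*, *TLR4*, *LY96* and *FCGR1A*, where 32.1% of 8162 genes were. Each hashtag marks 1 pool of wells, so these differences have no measure of spread between wells. *S100A8*-positive cells numbered 99, 89, 16 and 2 from hashtag 0252 to 0255, *EPX*-positive cells 76, 71, 32 and 16, and C1Q-positive cells 183, 156, 165 and 115.

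*TLR4* was at 9.92, 11.2, 5.56 and 5.61 CPM in all cells from hashtag 0252 to 0255, and at 27.0, 26.5, 11.8 and 15.6 in C1Q-positive cells. Hashtags 0252 and 0253 were the high pair both times, and in C1Q-positive cells 0252 was 2.29-fold (1.46 to 3.68) above 0254. The pair was also high in cells in no class (7.87, 11.2, 5.20 and 5.06 CPM). It was not in HLA-DRA-positive cells without C1Q (6.07, 4.72, 10.5 and 9.37) or CD34/GATA2-positive cells (3.12, 3.17, 3.06 and 3.74), where intervals overlapped. Hashtags 0252 and 0253 were also the high pair for *TLR2*, with 3.88, 4.19, 1.73 and 1.40 CPM in all cells and 18.2, 14.9, 6.50 and 5.21 in C1Q-positive cells. It was so for *FCGR1A* in all cells (4.73, 5.88, 2.85 and 2.38 CPM), while in C1Q-positive cells 0252 stood above the rest (41.6, 21.1, 15.0 and 13.9).

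*FCGR2A* was highest in 0252 and lowest in 0255 in all cells (38.2, 35.2, 26.2 and 20.6 CPM) and in C1Q-positive cells (146, 139, 125 and 100). In CD34/GATA2-positive cells the same 2 hashtags were 2.67-fold apart (interval, 2.01 to 3.60). *CD14* differed in another way, with 0253 alone high in C1Q-positive cells (83.1, 148, 71.9 and 93.7 CPM), where 0253 was 2.06-fold (1.72 to 2.49) above 0254. *CD14* was detected in 31.7, 36.5, 24.2 and 22.6% of the C1Q-positive cells, shares whose intervals overlapped.

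*FPR1* and *TYROBP* were nearly level across hashtags in C1Q-positive cells, from 35.3 to 41.5 CPM (ratio, 1.18; 0.846 to 1.64) and from 986 to 1097 CPM (1.11; 1.05 to 1.18). *FCGR3A* was between 19.1 and 28.6 CPM there, with an interval of the ratio from 0.977 to 2.34. With that weighting the highest-to-lowest ratio was 1.96 for *TLR4* (2.02 unweighted), 2.05 for *TLR2* (2.99), 2.38 for *FCGR1A* (2.46), 1.86 for *FCGR2A* (1.85), 1.85 for *CD14* (1.83), 1.38 for *FCGR3A* (2.17) and 1.43 for *FPR1* (1.59). The 2 *S100A8*-positive cells of 0255 held 1 UMI each of *TLR2* and *FCGR3A*, which entered the weighting as 31.2 CPM. The falls for these genes therefore rest in part on single UMIs. Median depth per hashtag was between 17621 and 18769.5 UMIs over all cells. In C1Q-positive cells it was 11642 in 0252, 14166 in 0253, 13335 in 0254 and 14238 in 0255, and 25 of the 183 cells of 0252 were in C1Q quintile 1 and 45 in quintile 5. The part of depth and of the C1Q level in the differences between hashtags was not tested.

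The genes around these receptors were read from 9 lists. Counts are of genes at least 2-fold higher than in all other cells, to be read against the 10.8% (C1Q-positive), 6.20% (HLA-DRA-positive without C1Q) and 10.4% (*S100A8*-positive) of all genes tested. Of 8 other toll-like receptor family genes tested, 8 were at least 2-fold higher in C1Q-positive cells, 6 in HLA-DRA-positive cells without C1Q and 3 in *S100A8*-positive cells. *LY86*, which encodes the MD-2 relative MD-1, was at 99.2 CPM in C1Q-positive and 108 in HLA-DRA-positive cells without C1Q, against 20.2 in *S100A8*-positive cells, and *TLR10* at 80.4, 90.9 and 3.07. Of 16 signaling genes downstream of these receptors, 4 were higher in C1Q-positive, 2 in HLA-DRA-positive and 2 in *S100A8*-positive cells, the last near the share of all genes. *IRAK3*, a negative regulator, was at 76.8 CPM in *S100A8*-positive and 26.4 in C1Q-positive cells. Of 6 target genes, 4 were higher in C1Q-positive and 5 in HLA-DRA-positive cells without C1Q, with the chemokine *CCL4* at 78.2 and 78.6 CPM, and 1 in *S100A8*-positive cells.

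Among 5 other Fc receptor genes tested, 4 were higher in C1Q-positive and 2 in *S100A8*-positive cells. *FCGRT*, the neonatal IgG receptor, was at 245 CPM in the former, 301 in the latter and 36.1 in CD34/GATA2-positive cells. Of 11 genes of ITAM signaling, 3 were higher in C1Q-positive, 1 in HLA-DRA-positive without C1Q and 2 in *S100A8*-positive cells. The latter 2 counts were near the share of all genes. *SYK* was at 98.2, 165 and 34.1 CPM in the C1Q-, *S100A8*- and CD34/GATA2-positive classes. Of 14 receptors that use either adaptor or were listed with them, 5 were higher in C1Q-positive and 7 in *S100A8*-positive cells, and 10 were lower by at least 2-fold in CD34/GATA2-positive cells. The share of all genes lower to that degree was not counted. *TREM2*, a partner of DAP12, was at 165 CPM in C1Q-positive, 51.2 in *S100A8*-positive and 2.07 in CD34/GATA2-positive cells.

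Of 6 other chemotactic receptor genes, 4 were higher in C1Q-positive and 4 in *S100A8*-positive cells. *PTAFR*, the receptor of platelet-activating factor, was at 130 CPM in C1Q-positive cells. Of 13 cytosolic sensor genes, 7 were higher in each of these 2 classes, among them *CASP1*, the inflammasome protease, at 58.6 and 52.9 CPM. Of 6 lectin and scavenger genes, 4 were higher in C1Q-positive cells, with the beta-glucan receptor *CLEC7A* at 144 CPM, and 1 in *S100A8*-positive cells (*BPI*, a lipopolysaccharide-binding granule protein, 54.0 CPM).

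Likeness of pattern was given as Pearson's r of log2(CPM + 1) over 28 pools, the 6 classes and the cells in no class by the 4 hashtags, among 9392 genes. The pools share a library and differ in depth, and r is a description. Some pools were small, with 2 *S100A8*-positive and 3 *ELANE*-positive cells in 0255. *FCGR1A* and *FPR1* were close to each other (r = 0.95). *CD14* was most like *PLA2G7* (0.96) and *C1QB* (0.94), and *FPR1* most like *CTSH* (0.96). *C1QB* is among the genes that set the C1Q-positive pools, so its r with *CD14* is in part given by that rule. *LY96* was most like *BHLHE41* (0.91), *AGR2* (0.91) and *FCGR2B* (0.90), and *TLR4* most like *ST3GAL6* (0.89). The r between *TLR4* and *LY96* was 0.21. *TYROBP* was most like *B2M* (0.93), *FCGR2A* *TM6SF1* (0.92), *TLR2* *PSAP* (0.89), *FCGR3A* *ABR* (0.88) and *FCER1G* *SH3BGRL3* (0.84).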

How the data were processed

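Counts of UMIs per gene and barcode were deposited by the authors without normalization, after alignment to hg19 with Cell Ranger 6.0.1, together with a hashtag call per barcode. The calls, 8488 for 1 hashtag, 1339 doublets and 1009 negatives, were used as deposited, and no other doublet caller was run. The 10 genes, the classes and the gene and marker lists were chosen with earlier results of these data known.

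Counts were summed over the cells of a class or hashtag (142110950 UMIs in all) and divided by their total. CPM levels carry exact Poisson, shares exact Clopper-Pearson and ratios exact conditional intervals at the 95% level, all for counting error alone. A level of 0 entered a ratio as 3 UMIs, and a bound that gave no direction was set to 1. For thinned shares each cell was reduced to 5000 UMIs with a fixed seed, leaving out 3 C1Q-, 4 *S100A8*-, 1 *ELANE*- and 1 *EPX*-positive cells. Named genes are the 10, list genes with 50 CPM or more in some class, and genes nearest in pattern; *FCGR2B* and the other copies, *MKI67*, *HLA-DRA* and reference cell genes were added, and the promoters shown were picked, after values were seen. *TLR9*, *FCGR2C*, *CXCL8* and *TPSB2* were not used, since their symbols are on no row or on several. The value of a further list gene is not reported here. Gene positions come from an hg19 annotation by Ensembl identifier. Steps were tested on simulated data. Python 3.11.15, numpy 2.4.6, scipy 1.17.1, pandas 2.3.3 and matplotlib 3.10.9 were used.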

Additional observations from a re-analysis of the deposited data

Results flagged for a closer look

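UMIs of the 10 genes were also present in barcodes that the comparisons left out, beyond the 3 counts taken as the limit of detection. In 809 negative barcodes within the limits on UMIs, genes and mitochondrial share, 9 of the 10 had more than 3 UMIs (*FCGR3A* had 2), with *FCER1G* at 241 CPM, *TYROBP* at 231 and *CD14* at 0.705. They held 4 C1Q-positive barcodes (0.494%). In the 1339 called doublets all 10 genes did, with *CD14* at 7.23 and *TLR4* at 7.30 CPM, and 161 of them were C1Q-positive. In the 938 single-hashtag barcodes outside the limits all 10 did as well, with *CD14* at 2.73, *FCGR2A* at 33.1 and *TYROBP* at 267 CPM, and 76 (8.10%) were C1Q-positive.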

How the results depend on the processing

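11 alternatives were planned and 1, leaving mixed cells out of all other cells, was chosen after seeing the data. No paired analysis was possible because no result comes from a test. Class levels within each hashtag are given as values. The number of members at 2-fold or more was between 9 and 10 in C1Q-positive cells and 0 in CD34/GATA2-positive cells under all 12. With class rules at 5 UMIs the number was 0 in *ELANE*- and 0 in *EPX*-positive cells, and at 20 UMIs it was 3 in HLA-DRA-positive cells without C1Q (*LY96*, *TYROBP* and *FPR1*). Under a mitochondrial limit of 10%, which left 736 cells, it was 0 in HLA-DRA-positive, 0 in *ELANE*- and 3 in *S100A8*-positive cells, the log2 ratio of *FCGR3A* in the latter turned to -0.90, and 9 members differed by 1.5 times between hashtags in C1Q-positive cells. With each cell weighted equally the number was 0 in *EPX*-positive cells, where the log2 ratio of *FCGR2A* was 0.97, and after thinning it was 0 in *EPX*- and 0 in HLA-DRA-positive cells. With cells of a second hashtag near its limit left out it was 2 in *ELANE*-positive cells. Keeping mixed cells in every class turned *LY96* in *S100A8*-positive cells to 0.29. Of 700 log2 ratios over 60 pairs of gene and class, 554 stayed within the counting interval and 144 moved beyond it. Among ratios past 2-fold, these 2 changed sign, and sign changes of smaller ratios were not counted apart. In all, 35 ratios past 2-fold fell under that limit. Under the mitochondrial limit, 10 of 53 ratios stayed within the interval and 11 fell under 2-fold. Causes were not tested. Depth limits the *ELANE*-positive class most, with 748150 UMIs, and low genes in it cannot be ranked.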
